A study of Mus musculus with 52 samples.

Results

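A set of 7 markers of dentate granule neurons was followed through the brain libraries of a mouse epilepsy study: Prox1, C1ql2, Stxbp6, Calb1, Trpc6, Plk5 and Dsp. They were taken by gene name, and all 7 were found among the 55487 genes of each of a pair of brain tables and among the 34042 genes of the other one. The 25 brain libraries came from C57BL/6 mice in 3 sets. The first cohort of the kainic acid (KA) model of temporal lobe epilepsy had 3 KA and 3 untreated libraries. The CNO-induced epileptic model had 3 libraries from mice given CNO, clozapine N-oxide, a designer drug that acts through an engineered receptor, and 3 untreated ones. The second KA cohort had 3 libraries from Apoe knockout mice given KA, 3 labelled A2aR knock down and given KA, 4 from mice given KA alone and 3 untreated. Apoe encodes the lipid carrier apolipoprotein E, and A2aR is the adenosine A2a receptor, encoded by Adora2a. The brain region, doses, times after treatment, ages, the receptor and promoter behind the CNO model and whether its untreated mice carried them, and the agent and target cells of the knockdown are not stated in these sources. Nothing in the labels says that libraries came from separate animals, so p-values measure the spread between these libraries, which may be technical.

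Granule neurons are the principal excitatory cells of the dentate gyrus, the entry point of the hippocampus. They receive input from the entorhinal cortex and send axons, the mossy fibres, to CA3 pyramidal neurons, and in temporal lobe epilepsy they are known for sprouting of mossy fibres, dispersion of their cell layer and loss of the calcium buffer calbindin. Prox1 is a homeobox transcription factor that sets granule cell identity. C1ql2 is a secreted C1q-like protein of mossy fibre synapses, where it recruits kainate receptors, and Stxbp6, also called amisyn, binds syntaxin and acts on vesicle fusion. Calb1 encodes calbindin, and Trpc6 is a cation channel opened downstream of receptors coupled to phospholipase C. Plk5 belongs to the polo-like kinase family, and Dsp encodes desmoplakin, a plaque protein of desmosomes. In bulk tissue, fewer granule cells in a sample and less RNA of a gene per granule cell cannot be told apart.

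The genes lie on 6 chromosomes of the mm10 build. In the second cohort's table, whose coordinates are those of the GENCODE M21 annotation for all 7, Prox1 spans chr1:190118035-190170714 on the minus strand, C1ql2 chr1:120340582-120343174 on the plus strand, Stxbp6 chr12:44852484-45074709 on the minus strand, Calb1 chr4:15881264-15908064 on the plus strand, Trpc6 chr9:8544142-8680741 on the plus strand, Plk5 chr10:80356459-80365489 on the plus strand and Dsp chr13:38151294-38198577 on the plus strand. Promoters, taken as 250 bases before to 50 after a start in RefSeq on GRCm38.p6, the assembly behind mm10, were found for 6 of the 7 symbols, with a pair of starts for Prox1 and the symbol Calb1 not matched. The promoters of Stxbp6 and Plk5 are shown because these members passed the test of a difference between groups, in the CNO set. The Stxbp6 promoter lies at chr12:45074434-45074733 on the minus strand and the Plk5 promoter at chr10:80356209-80356508 on the plus strand. Both are written 5′ to 3′ with each E-box in capitals, the letters CANNTG, which read the same on both strands and are the core bound by basic helix-loop-helix factors.
Stxbp6 promoter: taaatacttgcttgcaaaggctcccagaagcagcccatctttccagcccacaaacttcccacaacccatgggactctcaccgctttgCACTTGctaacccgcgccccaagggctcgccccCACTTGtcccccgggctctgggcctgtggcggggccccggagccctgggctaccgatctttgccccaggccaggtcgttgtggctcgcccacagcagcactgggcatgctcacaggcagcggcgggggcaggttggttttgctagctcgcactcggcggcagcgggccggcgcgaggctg
Plk5 promoter: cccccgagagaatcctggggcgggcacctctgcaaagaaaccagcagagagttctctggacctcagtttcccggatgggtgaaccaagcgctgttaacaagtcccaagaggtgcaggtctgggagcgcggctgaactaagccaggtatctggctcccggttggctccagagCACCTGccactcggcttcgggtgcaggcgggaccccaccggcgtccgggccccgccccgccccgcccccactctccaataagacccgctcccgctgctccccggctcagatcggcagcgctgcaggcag
The Stxbp6 promoter held 2 E-boxes, at -163 and -130 bases from the start, and the Plk5 promoter 1, at -79. An E-box was present in 5 of the 7 member promoters and in 72.3% of 32851 mouse promoters of that length. The AP-1 core TGANTCA, which also reads the same on both strands and shared no letters with an E-box here, was present in 0 of the 7 and in 7.81% of all. GC content was 66.3% for Stxbp6 and 66.7% for Plk5, against a median of 52.7% over all promoters.

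All 7 markers were readily measured in every library. In TPM, transcript abundance relative to the library's total, a scale that divides by transcript length and so allows genes to be compared, C1ql2 stood at percentile 85.0 to 93.2 of the genes that reached 1 TPM in 3 libraries, depending on the table, and Calb1 at 82.9 to 86.6. Stxbp6 followed at percentile 74.9 to 88.7, Prox1 at 62.0 to 80.0 and Plk5 at 50.6 to 81.7. Dsp stood at percentile 37.1 to 55.0 and Trpc6 at 28.1 to 59.8. In untreated libraries of the second cohort the order by mean TPM was C1ql2, Stxbp6, Calb1, Prox1, Plk5, Trpc6 and Dsp. There the libraries of neighbours overlapped between Calb1 and Prox1, Prox1 and Plk5, and Trpc6 and Dsp. In untreated libraries of the CNO set the order was C1ql2, Calb1, Stxbp6, Prox1, Plk5, Dsp and Trpc6, and of these neighbours C1ql2 and Calb1 overlapped. Behind the TPM values of the second cohort were 877 to 15866 counts per member and library, of 68760648 to 76643829 counts per library, while the depth of the other tables, given in TPM alone, is unknown. Levels were set against each other only within a table, since the tables were processed separately.

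**Figure D1:**
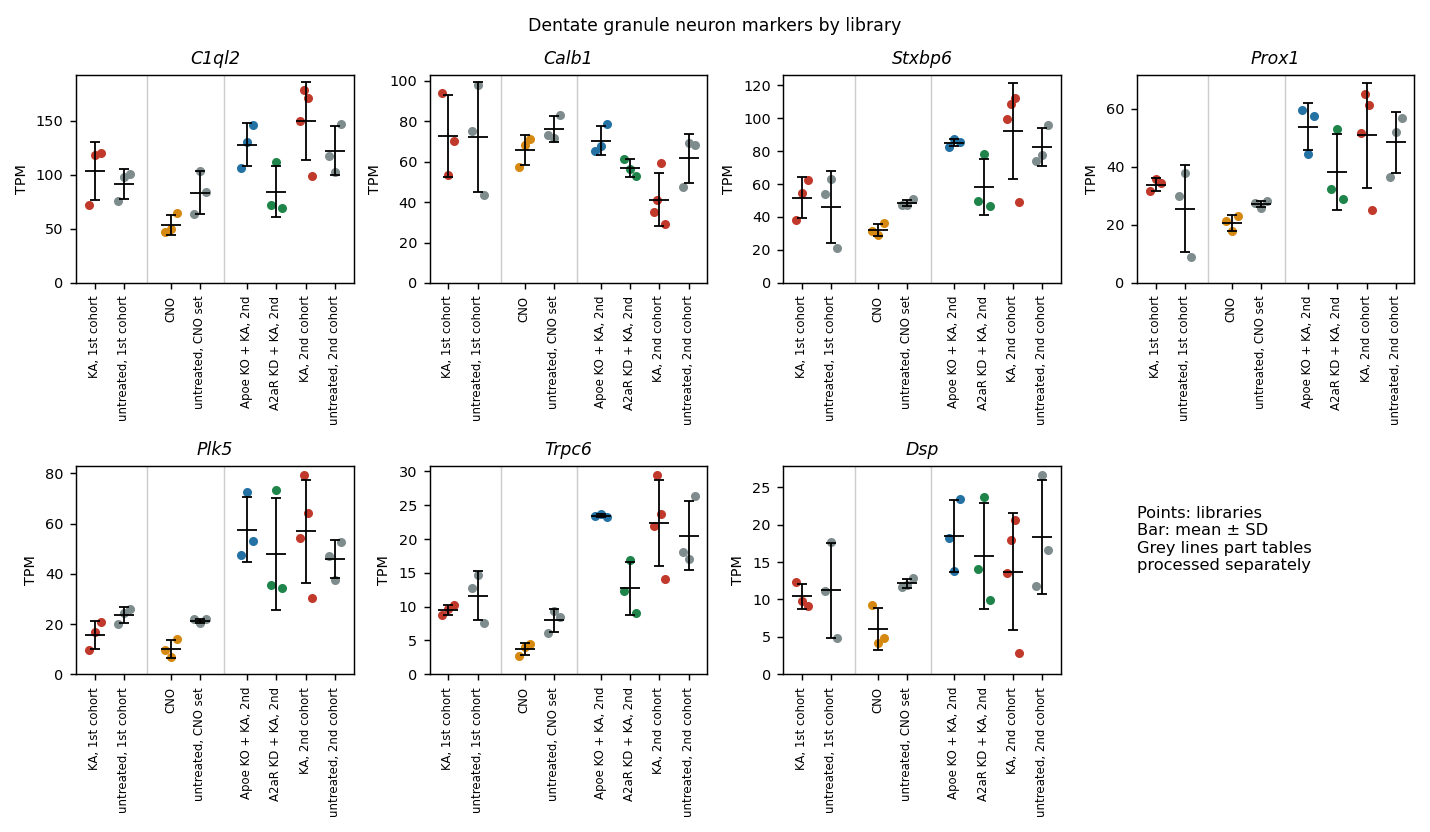
TPM of each marker in every brain library by group (points), with the group mean and SD (bars), where grey lines part the 3 separately processed tables. The CNO points lie below the untreated points of their set for all markers but C1ql2, and in the second cohort the point of KA 4 lies lowest of all 13 for Prox1, Plk5, Dsp and Calb1.

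In the CNO model the granule markers were lower than in untreated brain, and 2 of the 7, Stxbp6 and Plk5, fell past the threshold of an adjusted p of 0.05. Stxbp6 had 31.3, 29.0 and 36.3 TPM in CNO libraries 1 to 3, against 47.6, 47.0 and 50.7 TPM in untreated libraries 1 to 3. Plk5 had 9.51, 6.86 and 14.0 TPM in CNO libraries, against 21.8, 20.3 and 21.8 TPM in untreated ones. The CNO libraries of both genes lay below every untreated library, and the mean was 33.5% lower for Stxbp6 and 52.5% lower for Plk5. On the log2(TPM + 1) scale, which understates changes of low genes, Stxbp6 fell by 0.58 ± 0.10 (SE, limma adjusted p = 0.0255) and Plk5 by 1.05 ± 0.22 (adjusted p = 0.0438). Of 15453 genes tested, 36 (0.233%) were lower past the threshold and 535 (3.46%) higher.

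The remaining 5 markers pointed the same way without passing. Trpc6 had 2.75, 4.02 and 4.41 TPM in CNO libraries, against 6.09, 9.32 and 8.52 TPM in untreated ones, a log2 difference of -0.92 ± 0.21 (limma adjusted p = 0.0555). With the replicate number as a block, Trpc6 passed as well (limma adjusted p = 0.0157) and the calls were 3 members and 928 genes in all. No label gives this pairing. It was taken from these same libraries, where same-numbered ones deviated together only weakly (correlations of 0.111 to 0.231). Dsp had 9.30, 4.12 and 4.84 TPM in CNO libraries, against 11.7, 11.97 and 12.8 TPM in untreated ones (log2 difference -0.96 ± 0.25, limma adjusted p = 0.0916). Neither gene's groups overlapped, and CNO 1 held the highest Dsp value of the 3 CNO libraries.

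Prox1 had 21.3, 17.8 and 23.0 TPM in CNO libraries, against 27.6, 26.0 and 28.1 TPM in untreated ones (log2 difference -0.39 ± 0.12, limma adjusted p = 0.137). C1ql2 had 47.1, 50.1 and 64.2 TPM in CNO libraries, against 63.4, 103 and 83.7 TPM in untreated ones (-0.61 ± 0.19, adjusted p = 0.152), the single member whose groups overlapped, through CNO 3 and untreated 1. Calb1 had 57.2, 68.3 and 71.3 TPM in CNO libraries, against 73.2, 71.6 and 83.3 TPM in untreated ones (-0.21 ± 0.11, adjusted p = 0.410). Calbindin had the smallest difference of the 7, and its highest CNO library, at 71.3 TPM, lay just under its lowest untreated one, at 71.6 TPM. Over the list, 6 of 7 members were lower with no overlap between libraries, where 6.01% of all genes were, and the median log2 difference was -0.61, beside 0.04 over all genes tested.

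The difference was negative for every member under all 10 alternatives run, and the calls were less stable than the direction. Counts of members called were 0 without CNO 2 or without any of untreated 1, 2 and 3, 1 without CNO 1 (Dsp, limma adjusted p = 0.00555) and 2 without CNO 3, and 0 when no filter on low values was applied, where limma gave 6 members an unadjusted p under 0.05. Calls over all genes also changed, from 571 in the main fit to 170 without CNO 2 and 340, 317 and 215 without untreated 1, 2 and 3. They numbered 591 without CNO 1, 167 without CNO 3 and 197 with no filter. Adjusted p by limma ranged from 0.0157 to 0.111 for Stxbp6 and from 0.0202 to 0.147 for Plk5 over these alternatives.

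**Figure D2:**
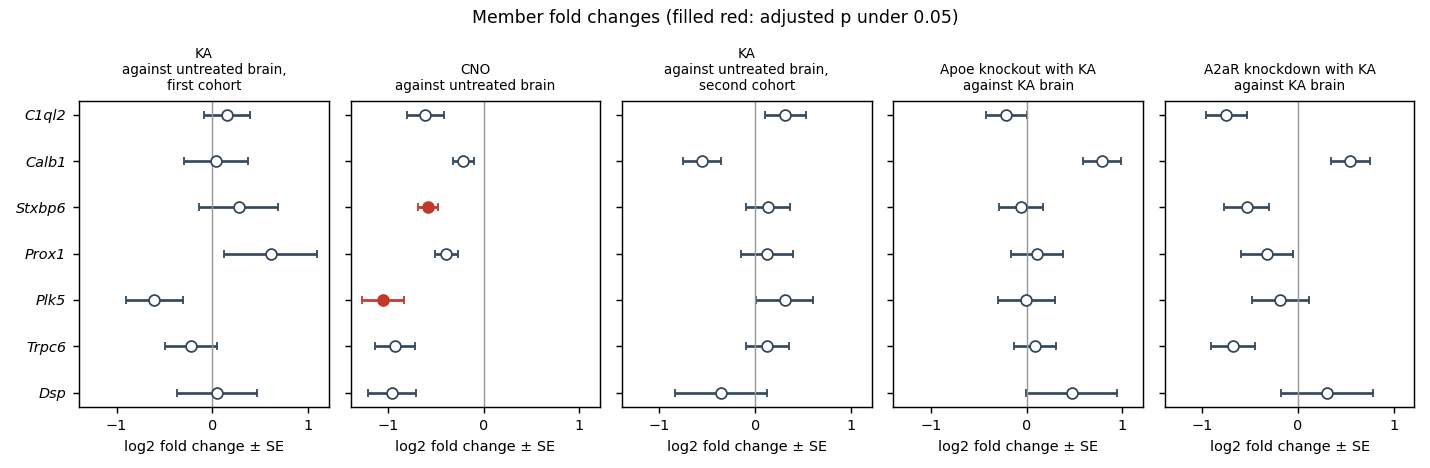
Log2 fold change with its SE (horizontal axis) of each marker in the 5 comparisons, with the tested condition over its comparison group, and filled red points for adjusted p under 0.05. Only Stxbp6 and Plk5 in CNO are filled, all 7 CNO points lie left of 0, and Calb1 lies at 0.78 in Apoe knockout with KA and at -0.56 in KA of the second cohort.

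Other granule neuron genes and genes of mossy fibre activity were read in the same libraries. Of 11 further granule neuron genes, 0 passed in CNO by limma, 3 had an unadjusted p under 0.05, and 9 were lower, with a median log2 difference of -0.16. Dock10, a guanine nucleotide exchange factor, was at -0.48 ± 0.12 (limma adjusted p = 0.0912), Tdo2, tryptophan dioxygenase, at -0.997 ± 0.311 (adjusted p = 0.153), and Lct, lactase, at -0.80 ± 0.29 (adjusted p = 0.216). Of 10 genes of mossy fibre activity and plasticity, 3 rose and 10 were higher: Npy, an inhibitory neuropeptide, by 2.08 ± 0.21 log2 (limma adjusted p = 0.00362), Penk, the enkephalin precursor, by 1.59 ± 0.16 (adjusted p = 0.00362) and Nptx2, a pentraxin of excitatory synapses, by 2.25 ± 0.27 (adjusted p = 0.00655). None of the 6 CA1, 6 CA3 and 4 tested CA2 pyramidal genes passed by limma, with 0, 1 and 0 at an unadjusted p under 0.05 and medians of 0.25, -0.11 and -0.23. Of 12 genes common to neurons 0 passed, 3 had an unadjusted p under 0.05, and the median was -0.05.

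Microglial and reactive astrocyte genes rose in this set, and oligodendrocyte genes did not pass. All 12 microglial genes rose (median log2 difference 1.36), with a summed level of 1435 to 1804 TPM in CNO libraries, against 553 to 638 TPM in untreated ones, and 7 of 9 reactive astrocyte genes rose (median 2.77), with sums of 2888 to 3684 TPM in CNO libraries, against 361 to 436 TPM in untreated ones. Of 7 oligodendrocyte genes 0 passed by limma, 0 had an unadjusted p under 0.05 and 5 were lower (median -0.15), with sums of 4521 to 7848 TPM in CNO libraries and 4960 to 9936 TPM in untreated ones. The 12 neuronal genes summed to 5750 to 6828 TPM in CNO libraries and 6013 to 6319 TPM in untreated ones, ranges that overlap. Thalamic genes also differed in level between libraries, with sums of 49.2 to 212 TPM in CNO and 113 to 327 TPM in untreated libraries. Choroid plexus genes summed to 11.1 to 719 TPM in CNO and 51.6 to 239 TPM in untreated libraries, and 0 of 6 passed. Of these, Ttr stood at 0.99 TPM in CNO 2, against 660 and 686 TPM in CNO 1 and 3. CNO 2 was also the lowest library of the set for Prox1, Stxbp6, Plk5 and Dsp. Of 8 striatal genes 1 rose by limma. Of 5 cerebellar genes Gabra6 was listed at 0 in 6 of 6 libraries and Pcp2 in 3 of 6, with up to 7.26 TPM. Calb2, Cdh15 and Cbln3 were above 0 in all 6. The part of glia or of neighbouring tissue in the lower granule markers was not tested.

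In the first KA cohort none of the 7 markers passed. Limma called 28 of 15331 genes (0.183%) in either direction, and 0 members had an unadjusted p under 0.05. One untreated library stood apart, and it held the lowest value of all 6 libraries for 5 of the members. Prox1 had 31.5, 35.8 and 34.3 TPM in KA libraries 1 to 3, against 29.9, 37.9 and 8.90 TPM in untreated libraries 1 to 3. Stxbp6 had 38.1, 54.6 and 62.5 TPM in KA libraries, against 53.7, 62.8 and 21.4 TPM in untreated ones. Dsp had 12.3, 9.77 and 9.17 TPM in KA libraries, against 11.1, 17.6 and 4.82 TPM in untreated ones. For these 3 genes untreated 3 lay well under both other untreated libraries. Calb1 had 93.9, 53.4 and 70.4 TPM in KA libraries, against 75.3, 97.9 and 43.7 TPM in untreated ones. Trpc6 had 8.74, 9.68 and 10.2 TPM in KA libraries, against 12.7, 14.7 and 7.54 TPM in untreated ones. In C1ql2 and Plk5 untreated 3 was not low. C1ql2 had 72.2, 118 and 120 TPM in KA libraries, against 75.6, 98.0 and 100 TPM in untreated ones, and Plk5 had 9.50, 16.7 and 20.8 TPM in KA libraries, against 19.9, 24.3 and 26.1 TPM in untreated ones.

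The differences of that library went with transcript length. Among 10902 genes with a length in the annotation (94.9% of those of mean 5 TPM or more), the median log2 difference of untreated 3 from the mean of untreated 1 and 2 was 0.32 for transcripts under 2000 bases and -0.43, -0.96, -1.27 and -1.45 for 2000 to 4000, 4000 to 6000, 6000 to 8000 and over 8000 bases. The same medians of untreated 1 minus untreated 2 lay between -0.03 and 0.01. The members did differ between untreated 1 and untreated 2, from -0.19 for Trpc6 to -0.62 for Dsp. All 7 lay below the quartiles of their length range there. In untreated 3 the members followed length in part. C1ql2 (2000 bases) and Plk5 (2112) differed by 0.21 and 0.23, Trpc6 (3259) by -0.78, Calb1 (4222) by -0.97, Stxbp6 (4553) by -1.40, Prox1 (7913) by -1.82 and Dsp (9592) by -1.40. Calb1 and Dsp lay within the quartiles of their length range, C1ql2 and Plk5 above them, and Trpc6, Stxbp6 and Prox1 below them. C1ql2 and Plk5 sat at the lower edge of the range of 2000 to 4000 bases. Their values lay within the quartiles of transcripts under 2000 bases, -0.01 to 0.65. Trpc6, at -0.782, lay just under its lower quartile of -0.777. The share of TPM in mitochondrial genes was 9.01% in untreated 3, against 16.1% and 15.9% in the other two untreated libraries.

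**Figure D3:**
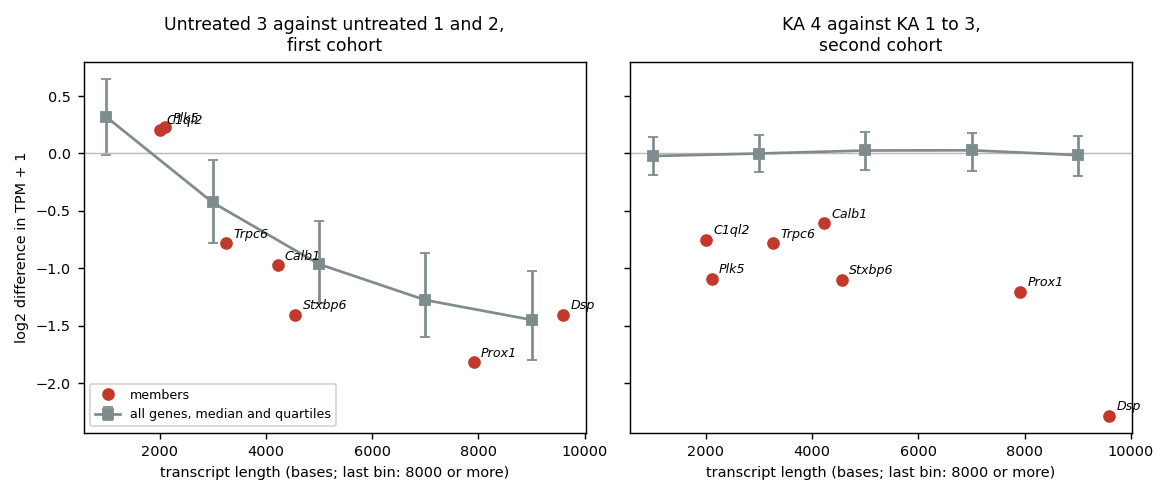
Log2 difference in TPM + 1 by transcript length (bases) for untreated 3 of the first cohort (left) and KA 4 of the second (right), with medians and quartiles of all genes in 5 length bins (grey) and the members (red). In the first cohort the bin medians run downward from 0.32 to -1.45 and 2 of the 7 members, Calb1 and Dsp, lie within the quartiles of their bin, while for KA 4 the medians stay between -0.02 and 0.03 and the members lie below 0.

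The log2 differences of the first cohort were 0.61 ± 0.49 for Prox1, 0.27 ± 0.41 for Stxbp6, 0.15 ± 0.24 for C1ql2, 0.05 ± 0.42 for Dsp, 0.04 ± 0.33 for Calb1, -0.22 ± 0.27 for Trpc6 and -0.61 ± 0.30 for Plk5, whose limma adjusted p of 0.442 was the lowest of the 7. All 7 members had overlapping groups, where 27.3% of all genes did not overlap in either direction. The median of all genes was 0.25 in this comparison, so relative to it 5 of the members were lower, and scaling libraries by median ratios (all-gene median -0.02) turned Stxbp6, C1ql2, Dsp and Calb1 negative. Without untreated 3 the differences were 0.01 for Prox1, -0.19 for Stxbp6, 0.22 for C1ql2, -0.41 for Dsp, -0.28 for Calb1, -0.48 for Trpc6 and -0.53 for Plk5, with 0 members and 352 genes called by limma and 1 member at an unadjusted p under 0.05. Of the 11 further granule genes 0 passed and 1 had an unadjusted p under 0.05, Tdo2, at -1.63 ± 0.22 log2 (limma adjusted p = 0.0530). Microglial and reactive astrocyte genes were all higher in these KA libraries, and none passed by limma, while 12 of 12 and 9 of 9 had an unadjusted p under 0.05 (median log2 differences 1.98 and 1.95). Microglial genes summed to 1594 to 4012 TPM in KA libraries, against 612 to 733 TPM in untreated ones, and reactive astrocyte genes to 855 to 2473 TPM in KA libraries, against 317 to 451 TPM in untreated ones. Choroid plexus and thalamic genes also had higher levels in these KA libraries (0 of 6 and 1 of 6 past the threshold by limma, 5 and 4 at an unadjusted p under 0.05, with the thalamic transcription factor Tcf7l2 up by 2.55 ± 0.23 log2, adjusted p = 0.0254), with summed levels of 1507 to 2274 TPM in KA, against 138 to 1103 TPM in untreated libraries for choroid plexus, and 109 to 127 TPM in KA, against 24.5 to 49.9 TPM in untreated libraries for thalamus. The part of these cell types and tissues in the marker values was not tested.

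In the second cohort the granule markers spread widely within groups, and edgeR called 0 of the 7 in each of 3 comparisons. Prox1 had 59.4, 44.5 and 57.4 TPM in Apoe knockout KA libraries 1 to 3, 32.5, 53.1 and 28.9 TPM in the libraries labelled A2aR knockdown 4 to 6, 51.6, 65.1, 61.4 and 25.2 TPM in KA libraries 1 to 4, and 36.6, 51.9 and 56.9 TPM in untreated libraries 1 to 3. C1ql2 had 106, 131 and 146 TPM in Apoe knockout KA, 71.6, 111 and 69.4 TPM in A2aR knockdown KA, 150, 179, 171 and 98.4 TPM in KA, and 117, 102 and 147 TPM in untreated libraries. Stxbp6 had 82.6, 87.2 and 85.5 TPM in Apoe knockout KA, 49.7, 78.0 and 46.8 TPM in A2aR knockdown KA, 99.2, 108, 112 and 49.2 TPM in KA, and 73.8, 77.7 and 95.5 TPM in untreated libraries. In each of the 3 genes KA 4 was far under the other KA libraries, and knockdown libraries 4 and 6 were under knockdown 5. Trpc6 had 23.4, 23.7 and 23.2 TPM in Apoe knockout KA, 12.3, 16.8 and 9.04 TPM in A2aR knockdown KA, 22.0, 29.5, 23.8 and 14.2 TPM in KA, and 18.2, 17.0 and 26.3 TPM in untreated libraries. Plk5 had 47.6, 72.4 and 52.9 TPM in Apoe knockout KA, 35.5, 73.6 and 34.5 TPM in A2aR knockdown KA, 54.1, 79.4, 64.1 and 30.4 TPM in KA, and 47.2, 37.7 and 52.9 TPM in untreated libraries. Dsp had 18.2, 13.8 and 23.4 TPM in Apoe knockout KA, 14.0, 23.7 and 9.88 TPM in A2aR knockdown KA, 13.6, 17.9, 20.7 and 2.78 TPM in KA, and 11.8, 26.7 and 16.6 TPM in untreated libraries. The single Dsp value of KA 4 was the lowest of any member in the cohort, and the 877 counts behind it keep counting error small beside the spread. Ordering the 4 groups by mean for each gene gave 21 pairs of neighbours, and 1 of them did not overlap, untreated over A2aR knockdown in Trpc6. The share of all genes without overlap in such pairs is not given here. The untreated libraries also differ from the knockdown libraries in sex, by Xist, so sex and group cannot be told apart in that pair.

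Calb1 had its lowest mean in KA libraries. It stood at 65.0, 67.5 and 78.4 TPM in Apoe knockout KA libraries, 61.4, 56.3 and 52.8 TPM in A2aR knockdown KA, 34.9, 40.9, 59.5 and 29.2 TPM in KA, and 47.6, 69.1 and 68.4 TPM in untreated libraries. KA 1, 2 and 4 lay below every other library of the cohort, and KA 3 lay among the untreated values.

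For KA against untreated brain, edgeR called 13 of 23318 genes (0.0558%) in either direction and 0 members, 1 member had an unadjusted p under 0.05, and DESeq2 called 0 members. That member was Calb1, with a log2 fold change of -0.56 ± 0.20 (edgeR adjusted p = 0.635). Its level was 41.1 ± 13.1 TPM in KA and 61.7 ± 12.2 TPM in untreated libraries (SD, n = 4 and 3). The other fold changes were 0.31 ± 0.21 for C1ql2, 0.31 ± 0.30 for Plk5, 0.14 ± 0.23 for Stxbp6, 0.13 ± 0.22 for Trpc6, 0.12 ± 0.27 for Prox1 and -0.36 ± 0.48 for Dsp. All 7 members had overlapping groups, where 8.06% of genes did not overlap in either direction. Without KA 4, 0 members passed and 3 had an unadjusted p under 0.05. The untreated libraries differ from the rest in sex: Xist, the RNA of the inactive X, stood at 122 to 145 TPM in untreated libraries and at most 0.310 TPM in the other 10 libraries, so sex and KA cannot be told apart here. All 12 microglial genes were higher, 0 passing by edgeR and 10 with an unadjusted p under 0.05, with sums of 677 to 1157 TPM in KA libraries, against 527 to 614 TPM in untreated ones, and their part in the marker values was not tested. Of the further granule genes 0 of 11 passed by edgeR and 0 had an unadjusted p under 0.05, and of the genes of mossy fibre activity 0 of 10 passed and 3 had one, led by Fos, an immediate early gene, at -1.95 ± 0.36 (adjusted p = 0.143).

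For Apoe knockout with KA against KA alone, Apoe itself, which checks the label, had 58.6, 29.7 and 31.2 TPM in knockout libraries, against 926, 830, 1383 and 1467 TPM in KA libraries. Calb1 was higher in all 3 knockout libraries than in any of the 4 KA libraries, at 70.3 ± 7.11 TPM in knockout and 41.1 ± 13.1 TPM in KA libraries (SD, n = 3 and 4), a pattern that 5.23% of genes shared. Its log2 fold change was 0.78 ± 0.20 (edgeR adjusted p = 0.252), so it did not pass, while DESeq2 gave an adjusted p of 0.0190. Over 13 alternatives the fold change stayed between 0.65 and 1.03 and the adjusted p between 0.0190 and 0.558, and leaving out KA 3, the KA library with the highest Calb1, gave 1.03 and an edgeR adjusted p of 0.0225. The other 6 markers had fold changes of 0.47 ± 0.48 (Dsp), 0.11 ± 0.27 (Prox1), 0.09 ± 0.22 (Trpc6), -0.0037 ± 0.297 (Plk5), -0.06 ± 0.23 (Stxbp6) and -0.21 ± 0.21 (C1ql2), none with an unadjusted p under 0.05. EdgeR thus called 0 members, with 1 at an unadjusted p under 0.05, and 26 of 23318 genes (0.112%) in either direction, and DESeq2 called 1 member. The 4 KA libraries enter all 3 comparisons of this cohort. All 9 reactive astrocyte genes were lower and 1, Lcn2, a lipocalin of the acute phase, fell by 5.39 ± 0.73 log2 (edgeR adjusted p = 0.0103), with sums of 487 to 515 TPM in knockout libraries and 511 to 1217 TPM in KA libraries. All 12 microglial genes were lower, 0 passing by edgeR and 6 with an unadjusted p under 0.05, with sums of 629 to 671 TPM in knockout libraries, against 677 to 1157 TPM in KA libraries. The relation of these genes to Calb1 was not tested.

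For the libraries labelled A2aR knockdown with KA against KA alone, the targeted gene did not separate the groups. Adora2a had 1.75, 2.15 and 1.89 TPM in libraries labelled knockdown, against 1.95, 2.90, 1.32 and 2.26 TPM in KA libraries, so directions below refer to the label. EdgeR called 0 members, 9 of 23318 genes (0.0386%) in either direction, and 4 members had an unadjusted p under 0.05. These were C1ql2 at -0.75 ± 0.22 (edgeR adjusted p = 0.363, DESeq2 adjusted p = 0.0486, the 1 member that DESeq2 called), Trpc6 at -0.68 ± 0.23 (edgeR adjusted p = 0.419), Stxbp6 at -0.54 ± 0.23 (adjusted p = 0.510) and, in the other direction, Calb1 at 0.55 ± 0.20 (adjusted p = 0.451). Prox1 was at -0.33 ± 0.27, Plk5 at -0.19 ± 0.30 and Dsp at 0.30 ± 0.48. Means were 84.1 ± 23.6 TPM for C1ql2 in knockdown and 149 ± 36.1 TPM in KA libraries, and 12.7 ± 3.92 TPM for Trpc6 in knockdown and 22.4 ± 6.33 TPM in KA libraries (SD, n = 3 and 4). Libraries overlapped for all 7 members, where 9.63% of genes did not overlap in either direction, and for C1ql2, Trpc6 and Stxbp6 the value of KA 4 lay inside the range of the knockdown libraries. Without KA 4, 5 members had an unadjusted p under 0.05 and 0 passed.

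Genes of other hippocampal cells also differed in level between the knockdown and KA libraries. Of 6 CA1 pyramidal genes 4 had an unadjusted p under 0.05, 1, Dcn, the proteoglycan decorin, was at -0.07 ± 0.17 (edgeR adjusted p = 0.949), and 1 rose by edgeR, Wfs1, an endoplasmic reticulum protein, with 75.4, 102 and 105 TPM in knockdown libraries, against 58.5, 39.9, 40.7 and 48.3 TPM in KA libraries (log2 fold change 1.10 ± 0.15, adjusted p = 0.0185). The 6 CA1 genes, none of them at 0, summed to 330, 269 and 313 TPM in knockdown libraries 4 to 6, against 178, 123, 168 and 270 TPM in KA libraries 1 to 4. The sum of KA 4 thus lay at the lower end of the knockdown sums. It held 96.7 TPM of Mpped1, against 24.2, 26.5 and 43.2 TPM in KA 1 to 3. By gene, KA 4 lay with the other KA libraries for Wfs1. For Fibcd1 it was at 60.9 TPM, below the knockdown libraries at 69.1 to 78.7 TPM. For Pou3f1 it was at 39.6 TPM, within their range of 38.6 to 42.3 TPM. The 6 CA3 genes summed to 344 to 452 TPM in knockdown libraries and 470 to 594 TPM in KA libraries, and 0 of them passed, with 3 at an unadjusted p under 0.05. Of 10 genes of immature granule neurons 0 passed and 9 were lower, with Draxin, an axon guidance protein, at -1.92 ± 0.38 (edgeR adjusted p = 0.170) and Sox11, a transcription factor of newborn neurons, at -0.75 ± 0.18 (adjusted p = 0.286), and 4 had an unadjusted p under 0.05. Of the 11 further granule genes 0 passed, 3 had an unadjusted p under 0.05 and 9 were lower (median -0.16). All 7 interneuron genes were higher, 0 passing and 5 with an unadjusted p under 0.05, and they summed to 942 to 1089 TPM in knockdown libraries, against 686 to 891 TPM in KA libraries. All 6 thalamic genes were lower, 0 passing and 2 with an unadjusted p under 0.05, with sums of 57.3 to 96.3 TPM in knockdown libraries and 68.8 to 316 TPM in KA libraries. The part of tissue composition in the marker values was not tested.

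Some libraries of the second cohort were low in nearly all granule markers. Members were set against the mean of untreated libraries on the log2 TPM scale, with no 1 added. The median over the 7 members was -0.73 in KA 4 and -0.80 in knockdown 6, where 7 of 7 were below 0. It was -0.55 in knockdown 4, where 6 of 7 were below 0. In knockdown 5 the median was -0.07. In KA 1 to 3 it was 0.13, 0.45 and 0.36, and in Apoe knockout 1 to 3 it was 0.07, 0.11 and 0.27. KA 4 showed no trend with transcript length, with bin medians of -0.02 to 0.03 against the other KA libraries, and it had the highest Gfap of the cohort, 978 TPM, against 301 to 696 TPM in the other 12 libraries. The choroid plexus genes were lowest in the libraries low in granule markers, with sums of 33.7 TPM in KA 4, 60.0 TPM in knockdown 4 and 32.4 TPM in knockdown 6, against 155 to 2082 TPM in the other 10. Thalamic genes summed to 68.8, 96.3 and 57.3 TPM in these 3 libraries, against 87.0 to 470 TPM in the other 10. The mitochondrial share was highest of the 13 in knockdown 6, at 19.4%, and KA 4, at 18.3%, against 15.2% to 17.4% in the rest. The part of these measures in the low marker values was not tested.

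**Figure D4:**
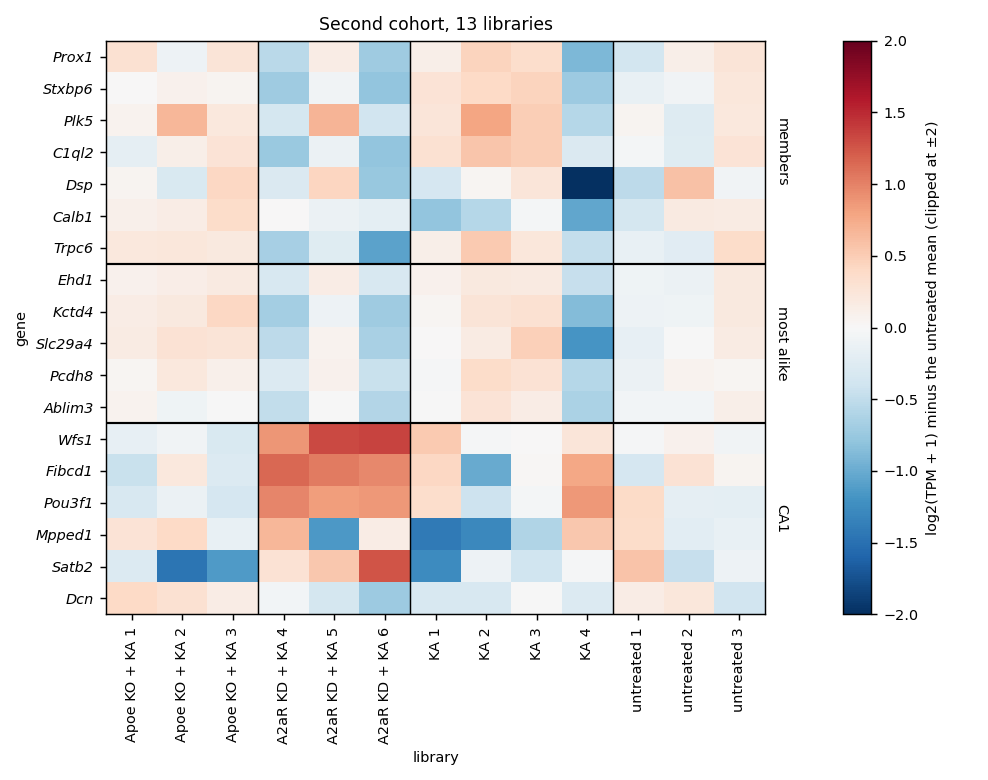
Difference in log2(TPM + 1) from the untreated mean (colour, clipped at 2) in the 13 libraries of the second cohort (columns) for the 7 markers, the 5 genes whose pattern was most like theirs, and 6 CA1 pyramidal genes (rows). The columns of KA 4 and of knockdown 4 and 6 are blue across most markers and the 5 alike genes, and the knockdown columns are red for Wfs1, Fibcd1 and Pou3f1.

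Of the 21 pairs of members across these 13 libraries, the highest correlations lay mostly among 5 markers, a grouping made after the values were seen. Among Prox1, C1ql2, Stxbp6, Trpc6 and Plk5 the 10 pairs had Pearson correlations of log2(TPM + 1) of 0.74 to 0.93, with permutation p adjusted over 21 pairs of at most 0.00825, and Spearman correlations of 0.69 to 0.95 with adjusted p of at most 0.0206. The permutations shuffled all 13 libraries without regard to group, so these p-values do not part differences between groups from covariation within them. The closest pair was the mossy fibre synapse gene C1ql2 and the vesicle fusion gene Stxbp6 (r = 0.928, permutation p = 1e-05, the smallest that 100000 draws can give, adjusted p = 0.000105; rho = 0.945, p = 2e-05, adjusted p = 0.00042). Each correlation was also taken without the pair of libraries farthest from the median of 1 of its genes. The libraries left out can therefore differ between pairs of genes, and outliers of the other gene can stay in. The 10 correlations then ran from 0.52 to 0.95. After taking out group means, so that only libraries of a group are compared, they ran from 0.75 to 0.93, with no test. Dsp went with Prox1 (r = 0.809, permutation p = 0.00028, adjusted p = 0.00118; rho = 0.714, p = 0.00826, adjusted p = 0.0192), closer than 4 of the 10 pairs above, and at 0.60 without the farthest libraries. With Stxbp6 it passed by Pearson (r = 0.609, permutation p = 0.022, adjusted p = 0.0355) and not by Spearman (rho = 0.385, p = 0.196, adjusted p = 0.294), and the Pearson value was 0.18 without the farthest libraries. Its pairs with Plk5, Trpc6 and C1ql2 were at 0.55, 0.44 and 0.35 and did not pass. The 6 pairs with Calb1 had correlations of -0.03 to 0.72, of which 1 passed, with Dsp (r = 0.718, permutation p = 0.00606, adjusted p = 0.0106; rho = 0.632, p = 0.0241, adjusted p = 0.0421), a pair at 0.46 without the farthest libraries. Within groups the Calb1 pairs had 0.36 to 0.75. The share of dentate gyrus in each library is not known, and its part in these correlations was not tested.

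Calb1 was also set against the other 6 members, a measure added after the values were seen and given with no test. Its log2 TPM minus the mean log2 TPM of the other 6 averaged 0.52 ± 0.06 in Apoe knockout KA, 0.76 ± 0.48 in A2aR knockdown KA, -0.16 ± 0.44 in KA and 0.46 ± 0.18 in untreated libraries of the second cohort (SD, n = 3, 3, 4 and 3). In the CNO set it averaged 2.24 ± 0.25 in CNO and 1.63 ± 0.13 in untreated libraries, and in the first cohort 1.49 ± 0.60 in KA and 1.49 ± 0.06 in untreated libraries (SD, n = 3 each). The libraries ran from -0.58 to 0.35 in KA, overlapping 0.31 to 0.66 in untreated brain of the second cohort, and from 2.03 to 2.51 in CNO, above 1.48 to 1.70 in its untreated brain. In the first cohort KA libraries ran from 1.00 to 2.15 and enclosed the untreated ones, at 1.43 to 1.54.

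**Figure D5:**
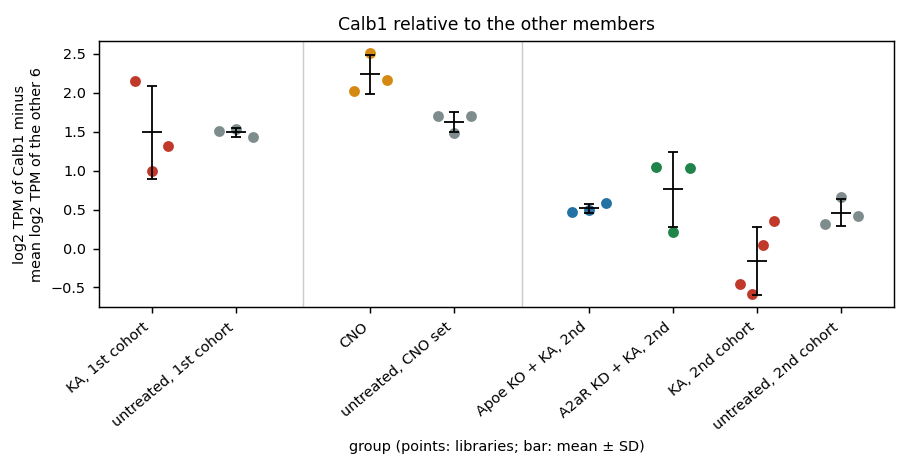
Log2 TPM of Calb1 minus the mean log2 TPM of the other 6 markers, by library (points) with group mean and SD (bars), where grey lines part tables. KA libraries of the second cohort average -0.16, below the 3 other groups of that cohort at 0.46 to 0.76, and CNO libraries average 2.24, above their untreated libraries at 1.63.

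The genes whose pattern was most like the members' were found by correlating each of 11548 genes of mean 5 TPM or more with the members' mean scaled level over the 13 libraries of the second cohort. They were Ehd1, an endocytic recycling ATPase (r = 0.972), Kctd4, a potassium channel tetramerization domain protein (0.971), Slc29a4, a monoamine transporter (0.968), Pcdh8, a protocadherin (0.966), and Ablim3, an actin-binding LIM protein (0.958). Kctd4 had 61.2, 63.0 and 73.6 TPM in Apoe knockout KA, 33.8, 50.9 and 33.1 TPM in A2aR knockdown KA, 56.6, 65.8, 68.2 and 29.7 TPM in KA, and 50.9, 51.5 and 63.3 TPM in untreated libraries, with KA 4 and knockdown 4 and 6 at the bottom as for the members. In the 6 libraries of the CNO set the same correlations were 0.86 for Kctd4, 0.71 for Ablim3, 0.70 for Slc29a4, -0.14 for Ehd1 and -0.60 for Pcdh8, and in the 6 of the first cohort 0.90, 0.96, 0.62, 0.69 and 0.52 in that order of genes. By rank among all genes, Kctd4 and Ablim3 stood at 171 and 611 of 10984 in the CNO set and at 292 and 39 of 10824 in the first cohort, while Slc29a4, Ehd1 and Pcdh8 stood at 4824, 3997 and 5602 in the first cohort, near the middle of all genes. Kctd4 and Ablim3 had Pearson correlations of 0.71 or more in all 3 tables, and those of Ehd1 and Pcdh8 were negative in the CNO set. By Spearman in the CNO set, Kctd4 was at 0.89 and Ablim3 at 0.49. Of the 11 further granule genes, Dock10 came closest in the second cohort, at r = 0.887 and rank 35, followed by Lct at 0.792 and rank 149, and Npnt, nephronectin, was farthest, at 0.112 and rank 6009.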

How the data were processed

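RNA was extracted with Trizol from flash-frozen brain and made into Illumina TruSeq libraries, per the labels' protocols. Per the submitters' processing notes, RSEM, HISAT2 and StringTie were used with mm10, in roles and versions not stated there. For the first KA cohort and the CNO set the authors deposited TPM per gene, a unit read from values totalling 978422 to 994236 per library; for the second cohort they deposited whole-number counts and TPM. Groups came from titles and characteristics, and 0 columns of per-sample values were left unmatched. No libraries of a group looked deposited more than once (chi-square per degree of freedom of counts 57.2 to 109).

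The TPM tables were fitted by limma 3.58.1 (R 4.3.3; log2 of TPM + 1, trended variance), keeping genes that reached 1 TPM in 3 libraries. The counts went into edgeR 4.0.16's quasi-likelihood test (TMM, its own low-count filter), all 4 groups in 1 fit. Adjusted p is Benjamini-Hochberg over all genes tested, threshold 0.05. Alternatives were median-ratio scaling or size factors, the DESeq2 1.42.0 Wald test, a pseudocount of 0.1, no filter, only the groups compared, limma on TPM, a replicate block and leaving out each library. The main fits had no replicate block, and replicate numbers paired CNO libraries only in that alternative. Same-numbered CNO libraries deviated together only weakly (correlations 0.111 to 0.231, 3 of 3 best with their own number). That pairing was read from these same libraries, and no label names a shared animal. Procedures were tested on simulated data.

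The members and gene lists were chosen with earlier results of these data known. Named genes are all members, Apoe, Adora2a and Xist as checks, and the 5 genes most correlated with the members. Of the lists whose genes are named, up to 4 with the smallest p are given plus any that passed. Gfap, Ttr, the cerebellar genes and the tissue sums were added after values were seen. Transcript length is that of the longest protein-coding transcript in GENCODE M21. Cultured astrocyte libraries were not used here.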

Additional observations from a re-analysis of the deposited data

How the results depend on the processing

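Of 406 fold changes of members under alternatives, 364 kept direction and side of the threshold, 12 no longer passed, 5 newly passed and 25 changed sign, none of the 25 past the threshold under either setting. In the CNO set, members called numbered 0 with no filter on low values, 2 with median-ratio scaling or a pseudocount of 0.1, and 0 to 2 when a library was left out; the replicate block gave 3. In the first cohort, median-ratio scaling gave -0.019 for Stxbp6, -0.15 for C1ql2, -0.22 for Dsp and -0.25 for Calb1, and leaving out a library gave -0.19 to 0.56 for Stxbp6, -0.41 to 0.43 for Dsp and -0.28 to 0.30 for Calb1. In second-cohort KA against untreated brain, the replicate block gave 0.0078 for Dsp, and leaving out a library gave -0.0012 to 0.35 for Prox1 and -0.027 to 0.30 for Trpc6. In Apoe knockout with KA, members called numbered 1 by DESeq2 and 0 to 1 when a library was left out; limma on TPM gave 0.073 for Plk5, the replicate block -0.12 for Prox1 and -0.068 for Trpc6, and leaving out a library -0.27 to 0.042 for Stxbp6, -0.23 to 0.16 for Plk5, -0.12 to 0.23 for Prox1 and -0.082 to 0.24 for Trpc6. In A2aR knockdown with KA, DESeq2 called 1 member, and leaving out a library gave -0.086 to 0.58 for Dsp. The cause was not tested; with no filter 28534 genes were tested in the CNO set, against 15453. Replicate numbers showed no pairing outside the CNO set (correlations -0.071 to 0.069); there the block called 2, 3 and 0 genes in the first cohort, second-cohort KA and Apoe knockout, against 28, 13 and 26, and 0 members in each. For A2aR knockdown no paired analysis was possible because it shares 1 number with KA. DESeq2 called 136, 278 and 238 genes in the second cohort's 3 comparisons, against 13, 26 and 9 by edgeR. In the first cohort 44 genes passed with a pseudocount of 0.1, 2 with no filter and 0 to 352 without a library. In CNO 197 passed with no filter and 928 with the block.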
